A study of Mus musculus with 6 samples.

Results

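L1Md_F is a subfamily of mouse LINE-1 (L1) retrotransposons, and its members here were all copies whose RepeatMasker class in the deposited tables was exactly L1Md_F, which leaves out the related classes L1Md_F2 and L1Md_F3. They numbered 220 of the 13686 L1 copies with reads and carried 2441 of the 393511 small RNA reads placed in L1 copies. The copies lay on 20 chromosomes and were 5000 to 6146 bp long (median 5244 bp). No shorter L1Md_F copy was listed, so the reads of any shorter copies are not covered here. Small RNA was sequenced from E14 mouse embryonic stem cells (ESCs), an established line of 129/Ola background, carrying a scrambled short hairpin RNA (shScr), a hairpin against Tet1 (shTet1) or a hairpin against Tet2 (shTet2). All cells, controls included, were transduced with pLKO.1 lentivirus and kept in puromycin (1 µg/ml for 3 days per the labels, whereas the study's methods give a higher dose and a range of days). Each condition had 2 libraries, and as nothing in the sources used here says that they came from separate cultures, the p-values measure only the spread between these libraries. TET1 and TET2 oxidise 5-methylcytosine, and the comparison asked whether small RNAs from L1 copies changed when either enzyme was depleted. The levels of Tet1 and Tet2 RNA and the markers of ESCs were not analysed here, since the tables hold reads in L1 copies alone.

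L1 elements copy themselves through an RNA that is transcribed from a promoter in the 5′ untranslated region and encodes an RNA-binding protein and a reverse transcriptase. Small RNAs can act against L1s along several routes. Dicer cuts double-stranded RNA into pieces of about 21 to 23 nt, and Piwi proteins bind RNAs of about 24 to 32 nt, which often begin with U and, where they are made in pairs from both strands, overlap by 10 nt at their 5′ ends. L1Md_F belongs to the older mouse L1 subfamilies, most of whose copies can no longer move. Small RNA libraries also hold pieces of abundant RNAs such as ribosomal and mitochondrial RNA.

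The reads that carried most of the signal lay at single sites in 3 copies, and the genomic words at these sites are shown first, all in mm9 and written 5′ to 3′ on the minus strand, as the reads were. Capitals mark the bases that differ from the start of the 18S ribosomal RNA sequence, given below them for comparison.
Site in chr19:14185248-14190394, at chr19:14189311-14189328: tacAAggttgatcctgcA
Site in chr7:15909422-15914593, at chr7:15913747-15913764: tacAAggttgatcctgcc
Site in chr7:15427172-15432335, at chr7:15431489-15431506: tacAAggttgatcctgcc
Ribosomal word, chr17:39983298-39983315, plus strand: tacctggttgatcctgcc
Counted from 1 at the 5′ end, the chromosome 19 word differed from the ribosomal word by C4A, T5A and C18A, and the chromosome 7 word by C4A and T5A (ribosomal base first). The ribosomal word lay 1733 bp from the annotated gene AY036118, at 1 of the 2 places in mm9 that held it exactly. The RefSeq table, made on another build and used for neighbours only, lists the 18S ribosomal RNA-related gene Rn18s-rs5 beside AY036118.

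The 5 most frequent reads of all L1Md_F copies follow, since they show how the reads compare with both the copies and the ribosomal word; here capitals mark bases that differ from the copy.
Read 1, 992 reads in the chromosome 19 copy: tacaTggttgatcctgca
Read 2, 152 reads in the chromosome 19 copy: tacaaggttgatcctgca
Read 3, 123 reads in the chromosome 19 copy: tacaaggttgatccAgca
Read 4, 112 reads in the chromosome 7 copies: tacaaggttgatcctgcc
Read 5, 109 reads in the chromosome 19 copy: tacCaggttgatcctgca
Reads 2 and 4 matched their copies exactly, whereas read 1 carried A5T, read 3 T15A and read 5 A4C (copy base first). Read 1, which alone made up 992 of the 2441 L1Md_F reads, differed from the ribosomal word at C4A and C18A, 2 bases, against 1 base from the copy. It matched no place in the genome exactly and 1 place, the chromosome 19 site, with 1 mismatch. Read 4 matched 17 places exactly, 11 of them in the L1 copies listed and 2 in L1Md_F copies, and the same sequence was found 620 times over all L1 classes. Per the study's methods, a read that fits several places equally well was put at one of them at random.

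The numbers of reads in L1Md_F copies differed widely between libraries of the same condition. They were 513 and 522 in the shScr libraries, 99 and 59 in shTet1, and 1154 and 94 in shTet2. Replicate 1 of shTet2 thus held more reads than any other library, and replicate 2 of shTet2 fewer than either shScr library. The libraries held 125478 and 128715 (shScr), 11566 and 23484 (shTet1), and 69360 and 34908 (shTet2) reads in all L1 copies. As shares of these, L1Md_F reads made up 0.409% (95% Wilson interval 0.375 to 0.446) and 0.406% (0.372 to 0.442) in shScr. In shTet1 the share was 0.856% for replicate 1 (0.704 to 1.04) and 0.251% for replicate 2 (0.195 to 0.324). In shTet2 it was 1.66% for replicate 1 (1.57 to 1.76) and 0.269% for replicate 2 (0.220 to 0.329). In each knockdown, replicate 1 lay above and replicate 2 below both shScr libraries, further apart than their counting intervals. Such intervals cover counting error only, as reads without molecular identifiers can be PCR copies of one molecule. Totals of all small RNA reads were not used here, so that depth and the amount of L1 RNA cannot be told apart in the numbers of reads, nor can fewer cells and less RNA per cell.

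The mean number of reads was 517.5 ± 6.36 in shScr, 79.0 ± 28.3 in shTet1 and 624 ± 750 in shTet2 (SD, n = 2 each). On the log2 scale, the ratio to shScr was -2.71 for shTet1, with both libraries below both shScr libraries (two-sided exact permutation test, p = 0.333, the smallest that 2 libraries against 2 allow). For shTet2 it was 0.27, with the SD larger than the difference (two-sided exact permutation test, p = 1). The share of L1 reads was 0.146 percentage points higher in shTet1 (0.554% ± 0.428 against 0.407% ± 0.00233, SD, n = 2 each) and 0.559 points higher in shTet2 (0.967% ± 0.986), both within the spread of the knockdown libraries (two-sided exact permutation test, p = 1 in each comparison). Without replicate 1 of the knockdown the difference in share turned to -0.156 points for shTet1 and -0.138 for shTet2. The share also depends on the other L1 copies, as 3 copies of L1Md_T and L1Md_F2 held 73.7% to 84.3% of the L1 reads in each library. With these 3 copies left out of the total, the difference was 0.133 points for shTet1 and 1.86 points for shTet2 (4.08% ± 3.35 against 2.23% ± 0.142, SD, n = 2 each), still within the spread of the shTet2 libraries.

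A limma-voom model of the reads tallied per class, fitted on all 6 libraries and 21 classes, gave L1Md_F a log2 fold change of -0.24 ± 0.78 (standard error) for shTet1, with a limma adjusted p of 0.940, and of 0.84 ± 0.65 for shTet2, with a limma adjusted p of 0.642. It called 0 of the 21 classes in either comparison (0% of the classes tested), and 3 classes for shTet1 and 4 for shTet2 had an unadjusted limma p under 0.05. The classes nearest in name gave -0.38 (L1Md_F2) and -0.13 (L1Md_F3) for shTet1, and 0.01 and 0.40 for shTet2. The fold change of L1Md_F turned on single libraries and reads: it was 0.60 for shTet1 without replicate 2 of shTet1, -0.35 for shTet2 without replicate 1 of shTet2, 1.57 without replicate 2 of shTet2, and -0.21 for shTet2 without the reads at the 3 sites. The sites were chosen for their reads, most of them from replicate 1 of shTet2, so that leaving them out lowers the shTet2 value by construction.

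The 3 sites held 1781 of the 2441 reads, or 73.0%. Every one of these reads was antisense to its copy and shared the 5′ end of the words above, and 1712 of them (96.1%) were 18 nt long, within a range of 15 to 21 nt. By library they numbered 292 and 315 in shScr, 74 and 30 under shTet1, and 1012 and 58 under shTet2. The excess of replicate 1 of shTet2 over the larger shScr library was 632 reads over all L1Md_F copies and 697 at the 3 sites, so that outside the sites this library held fewer reads than either shScr library. As shares of L1 reads the sites held 0.233% and 0.245% in shScr, 0.640% and 0.128% under shTet1, and 1.46% and 0.166% under shTet2.

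**Figure D1:**
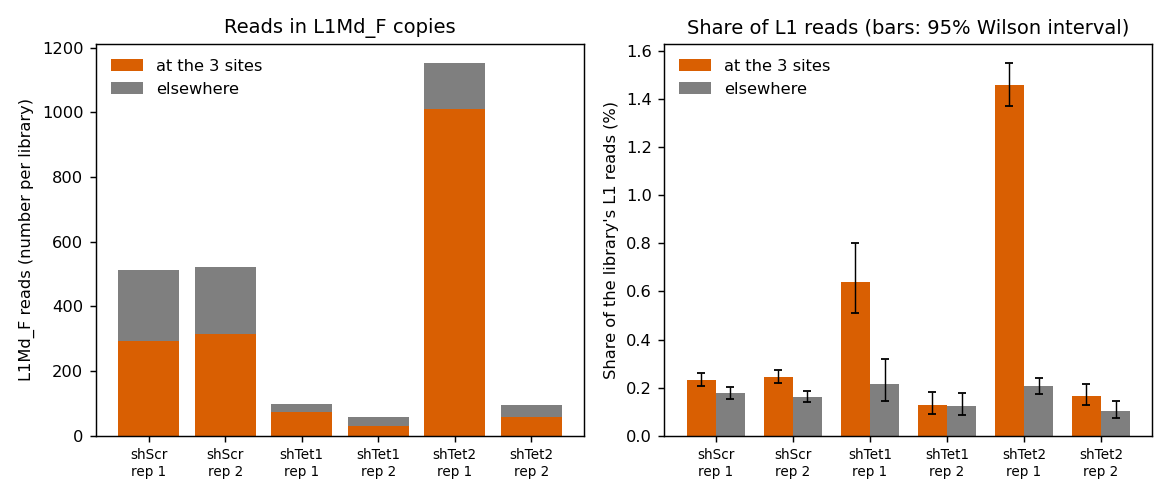
L1Md_F reads in each of the 6 libraries, as numbers (left) and as shares of the library's L1 reads in percent (right, error bars are 95% Wilson intervals), split into reads at the 3 sites (orange) and elsewhere (grey). The 1012 site reads of shTet2 replicate 1 stand out in both panels, while the reads elsewhere lie between 0.103% and 0.216% of L1 reads in all libraries.

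The copy on chromosome 19 (chr19:14185248-14190394, plus strand, 5147 bp, in no annotated gene, nearest gene the olfactory receptor Olfr1505 at 190714 bp) held 1458 reads. They numbered 226 and 253 in shScr, 60 and 24 under shTet1, and 849 and 46 under shTet2, so that the shScr libraries lay between the libraries of shTet2. Its 18-nt place, 4072 bp from the 5′ end of the copy, held 98.1% of its reads. The copy chr7:15909422-15914593 (plus strand, in no gene) held 170 reads, with 35 and 32 in shScr, 6 and 2 under shTet1, and 89 and 6 under shTet2. Its site lay 4334 bp from the 5′ end. The copy chr7:15427172-15432335 (plus strand, in no gene) held 157 reads, with 33 and 32 in shScr, 8 and 4 under shTet1, and 74 and 6 under shTet2, at a site 4326 bp from the 5′ end. All 3 copies had the same order of libraries at the ends: replicate 1 of shTet2 was highest and replicate 2 of shTet1 lowest. The copies were chosen for their reads over all libraries, most of which came from replicate 1 of shTet2, so that its rank in them is no separate result. The chromosome 7 sites hold the same word, whose reads were placed at random, and are not separate observations. The chromosome 7 copies were 98.5% identical to each other and 83.0% identical to the chromosome 19 copy, and all sites lay in the 3′ part of the copies, 838 to 1075 bp from the 3′ end.

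By the same rule, which takes the 5 copies with the most reads over all libraries and the 5 with the most in replicate 1 of shTet2, a further 3 copies were named, none of them in a gene. Each held its reads mainly at 1 place, and the most frequent read of each is shown with capitals where it differs from the copy.
Copy chr5:18390050-18395129, minus strand, 12 sense reads: tcggatccGtctgaga
Copy chr3:15577119-15582758, minus strand, 18 antisense reads: aaaGgtttggtcctggt
Copy chr5:70323729-70329132, minus strand, 14 sense reads: ggaaactctggtgga
The first copy held 22 reads, with 6 and 8 in shScr, 2 and 0 under shTet1, and 5 and 1 under shTet2. Its read matched no place in the genome exactly and 8 places with 1 mismatch. The chromosome 3 copy held 21 reads, with 2 and 6 in shScr, 0 and 0 under shTet1, and 10 and 3 under shTet2. Its read, which carried T4G against the copy, differed by 1 base, C17T, from the first bases of mt-Rnr1, the mitochondrial 12S ribosomal RNA gene (chrM:70-86). This was 1 of 32 places in the genome that the read matched with 1 mismatch, and it matched none exactly. The last copy held 21 reads, with 0 and 2 in shScr, 2 and 1 under shTet1, and 16 and 0 under shTet2, and its read matched 30 places in the genome exactly. The latter 2 copies were chosen at least in part for their reads in replicate 1 of shTet2, so that its rank in them is no result. With numbers this low in shTet1 and in replicate 2 of shTet2, differences between the conditions were not detectable at this depth.

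**Figure D2:**
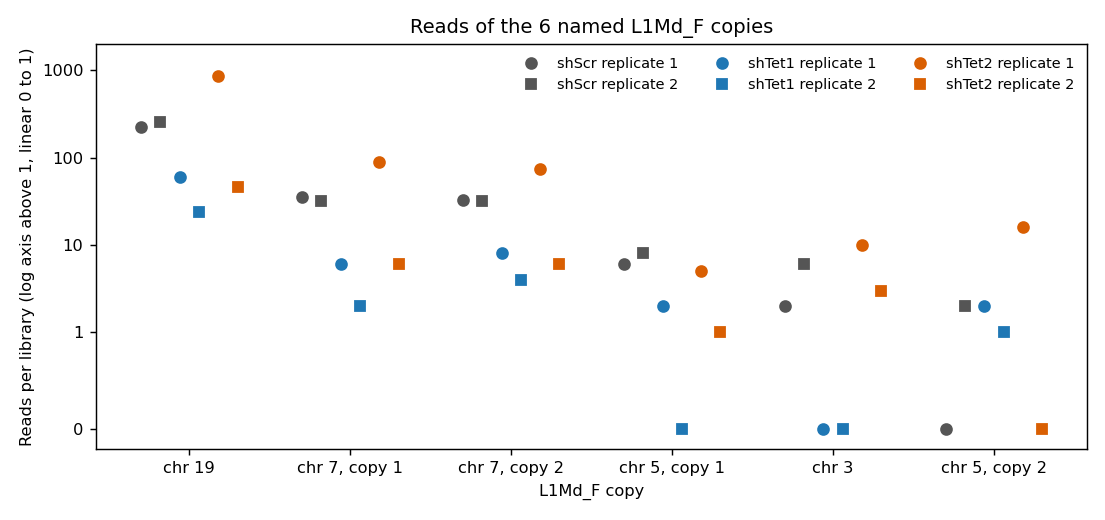
Reads per library in the 6 named copies, on an axis that is logarithmic above 1 read and linear from 0 to 1, with colours for the conditions, circles for replicate 1 and squares for replicate 2. The chromosome 19 copy ranges from 24 to 849 reads, and the chromosome 5 and 3 copies stay at 16 reads or fewer; part of the copies were chosen for their reads in replicate 1 of shTet2, so its height in them is no result.

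The bases of the site reads were then set against the copy and against the ribosomal word, position by position. Of the 1781 site reads, 295 (16.6%) matched their copy exactly and 1486 (83.4%) had 1 mismatch. Among the 1430 reads of 18 nt at the chromosome 19 site, 1278 bases differed from the copy, and 1101 of them (86.2%) were the ribosomal base. At position 5, 996 of the 1430 reads differed from the copy and 992 of these carried the ribosomal T, which is read 1. At position 4, 109 differed and all carried the ribosomal C, which is read 5. No read had both, and all 1430 differed from the ribosomal word at position 18, where 7 differed from the copy. Neither is a result, as the selection of the reads fixes both. A read with both changes fits the ribosomal word better than this site. A read with the ribosomal C at position 18 fits the chromosome 7 word better. Position 15 showed another change, with 125 reads that differed from both, 123 of them with A. Over all site reads, 4105 bases differed from the ribosomal word, and 4089 of them (99.6%) were A in the read. The site words themselves differ from the ribosomal word only by A, and no site read had more than 1 mismatch to its copy. This proportion thus largely follows from the choice of sites and is no result about the reads. The proportion of read 1 among the reads of the chromosome 19 site was alike in all libraries, with 66.2% and 73.8% in shScr, 71.7% and 75% under shTet1, and 66.8% and 63.0% under shTet2. Whether these reads derive from L1Md_F copies or from ribosomal RNA was not tested.

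**Figure D3:**
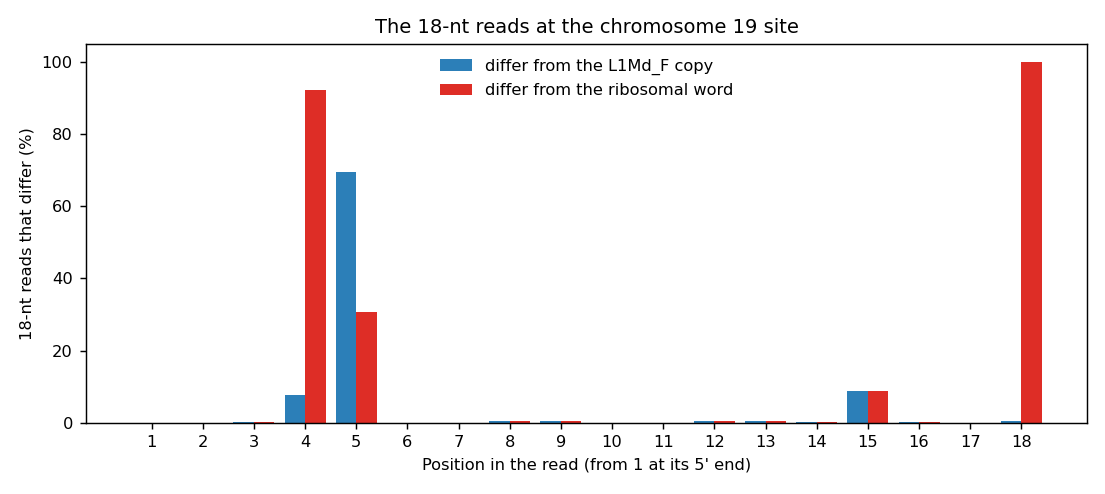
For the 1430 reads of 18 nt at the chromosome 19 site, the percentage of reads (vertical axis) that differ from the copy (blue) and from the ribosomal word (red) at each position counted from the 5′ end (horizontal axis). Position 5 differs from the copy in 69.7% of reads, and position 18 differs from the ribosomal word in 100% of reads, the latter fixed by the selection of the reads.

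Reads of this kind were not confined to L1Md_F. Over all L1 classes, 4962 reads of 15 to 21 nt lay within 4 mismatches of the ribosomal word when aligned at the 5′ end, in 167 copies of 14 classes. None matched the word exactly, which the selection of the reads fixes, as an exact match aligns best to the ribosomal places and so is not listed under L1 copies. By mismatches, 1342 had 1 mismatch, 2161 had 2, 1080 had 3 and 379 had 4. The L1Md_F copies held 1783 of them (35.9%), L1Md_T 1357, L1Md_F2 825, L1Md_F3 568 and L1Md_A 259. They made up 73.0% of the reads of L1Md_F, 24.4% of those of L1_Mur1 (76 reads), 18.7% of L1Md_F3, 9.73% of Lx (58 reads), and at most 3.23% in each of the other classes, such as 1.35% of L1Md_F2 and 0.459% of L1Md_T. By library this group of reads numbered 914 and 820 in shScr, 217 and 115 under shTet1, and 2716 and 180 under shTet2, and its share of L1 reads was highest in replicate 1 of shTet2 (3.92%, 95% Wilson interval 3.77 to 4.06) and next in replicate 1 of shTet1 (1.88%, 1.64 to 2.14), against 0.490% to 0.728% in the other libraries. The portion of the group that lay in L1Md_F was 31.9% and 38.4% in shScr, 34.1% and 26.1% under shTet1, and 37.3% and 32.2% under shTet2.

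The length profile of L1Md_F reads followed the sites. Reads of exactly 18 nt made up 55.2% and 58.6% in shScr, 71.7% and 54.2% under shTet1, and 87.3% and 59.6% under shTet2. Of the 1756 reads of 18 nt, 44 lay elsewhere, with 7 and 10 in shScr, 1 and 3 under shTet1, and 18 and 5 under shTet2. The size class of Dicer products, 21 to 23 nt, took up 4.09% and 4.21% in shScr, 3.03% and 6.78% under shTet1, and 1.39% and 1.06% under shTet2. Both shTet2 libraries were below both shScr libraries, with a mean difference of -2.93 percentage points (two-sided exact permutation test, p = 0.333, the smallest possible), while the shTet1 libraries lay on both sides. The size class of Piwi-bound RNAs, 24 to 32 nt, took up 9.55% and 7.66% in shScr, 5.05% and 10.2% under shTet1, and 1.65% and 4.26% under shTet2. Here too both shTet2 libraries were lower, with a mean difference of -5.66 points (two-sided exact permutation test, p = 0.333, the smallest possible), and the shTet1 mean differed by -0.997 points, less than the spread between its libraries (two-sided exact permutation test, p = 1). As shares of a total that the 18-nt reads fill, these values move with the sites, so that the reads elsewhere were described on their own.

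**Figure D4:**
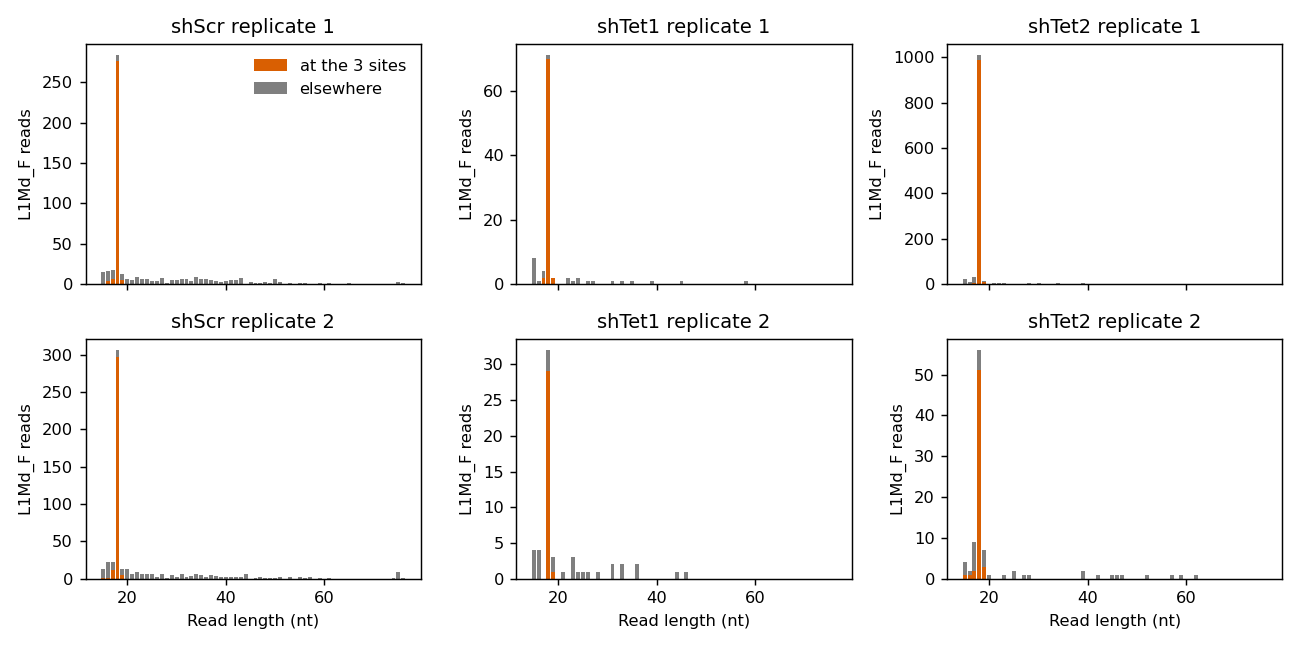
Read length in nt (horizontal axis) against the number of L1Md_F reads (vertical axis, scaled to each library) for the 6 libraries, with reads at the 3 sites in orange and reads elsewhere in grey. The peak at 18 nt holds 54.2% to 87.3% of the reads of each library, and the reads elsewhere spread from 15 to 76 nt.

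Outside the sites, 660 reads lay in 219 of the 220 copies. By library they numbered 221 and 207 in shScr, 25 and 29 under shTet1, and 142 and 36 under shTet2. As shares of L1 reads these were 0.176% and 0.161% in shScr, 0.216% and 0.123% under shTet1, and 0.205% and 0.103% under shTet2. The shares in the knockdowns lay on both sides of shScr, as for all L1Md_F reads, but over a narrower range. With the site reads left out of numerator and denominator, the mean share differed from shScr by 0.00172 percentage points for shTet1 and by -0.0133 for shTet2 (two-sided exact permutation test, p = 1 in each comparison). As the sites were chosen for their reads, most of them from replicate 1 of shTet2, the narrower range and smaller differences partly follow from that choice.

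The reads elsewhere were thinly spread. The median copy held 2 of them, 60 copies held 1, and the 10 copies with the most held 22.6%. No copy had such reads in all 6 libraries, 13 had them in at least 4 libraries, and 14 in all 3 conditions. In shScr 186 copies had reads elsewhere, against 45 in shTet1 and 99 in shTet2. The shScr libraries shared 73 copies, 53.7% and 59.3% of those with reads in replicates 1 and 2, whereas the shTet2 libraries shared 9 (11.4% and 31.0%) and the shTet1 libraries 4 (18.2% and 14.8%). These lower overlaps stand beside the smaller numbers of reads in the knockdown libraries, whose part in them was not tested. Of the 660 reads, 488 (73.9%) matched their copy exactly. The copy's own bases under the read occurred at 1 place in mm9 for 102 reads (15.5%) and at more than 10 places for 378 (57.3%, median 24.5 places), so that most reads could not be tied to a single copy.

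Elsewhere in the copies, sense reads outnumbered antisense reads, with 430 against 230 (65.2% sense). Antisense reads made up 38.9% and 34.3% in shScr, 20% and 27.6% under shTet1, and 31.7% and 41.7% under shTet2. Both shTet1 libraries were below both shScr libraries, with a mean difference of -12.8 percentage points (23.8% ± 5.36 against 36.6% ± 3.26, SD, n = 2 each; two-sided exact permutation test, p = 0.333, the smallest possible), on 5 and 8 antisense reads. The shTet2 mean differed from shScr by 0.0716 points (two-sided exact permutation test, p = 1). Over all L1Md_F reads, the sites included, antisense reads made up 73.7% and 73.9% in shScr, 79.8% and 64.4% under shTet1, and 91.6% and 77.7% under shTet2, which put shTet2 above shScr by 10.8 points (two-sided exact permutation test, p = 0.333) and gave shTet1 a difference of -1.71 points (p = 1). The difference of 10.8 points for shTet2 thus stood beside one of 0.0716 points without the site reads. Every site read was antisense, and the sites were chosen for their reads, most of which came from replicate 1 of shTet2. Leaving them out therefore lowers the antisense share most in that library by construction, and the smaller difference is no separate result.

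Most of the copies, 189 of 220, lay in no annotated gene, 12 lay in an intron on the strand of the gene, 19 in an intron on the opposite strand, and 0 touched an exon. In copies outside genes, 64.9% of the 579 reads elsewhere were sense (95% Wilson interval 61.0 to 68.7). The value was 76.0% of 25 reads for copies on the strand of the gene (56.6 to 88.5) and 62.5% of 56 reads for copies on the opposite strand (49.4 to 74.0), and these intervals overlapped. They pool the reads of all libraries as independent draws, which the reads may not be, and do not measure the spread between libraries.

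The lengths elsewhere were broad, from 15 to 76 nt, and shorter in the knockdown libraries. The median was 29 and 25 nt in shScr, 22 and 23 nt in shTet1, and 18.5 and 19 nt in shTet2. Reads of 15 to 20 nt made up 27.1% and 35.7% in shScr, 48.0% and 44.8% under shTet1, and 54.2% and 58.3% under shTet2, and those longer than 32 nt made up 41.2% and 34.3% in shScr, 20% and 20.7% under shTet1, and 21.8% and 27.8% under shTet2. In both length groups every knockdown library lay outside the range of the shScr libraries; these groups were chosen after their values were seen and were not tested. Reads of 21 to 23 nt elsewhere made up 9.50% and 10.6% in shScr, 12.0% and 13.8% under shTet1, and 10.6% and 2.78% under shTet2. For shTet1 the mean was 2.83 points above shScr, on 3 and 4 such reads (two-sided exact permutation test, p = 0.333, the smallest possible). For shTet2 the difference was -3.39 points, with a spread larger than the difference (two-sided exact permutation test, p = 0.667).

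Reads of 24 to 32 nt elsewhere made up 22.2% and 19.3% in shScr, 20% and 20.7% under shTet1, and 13.4% and 11.1% under shTet2. Both shTet2 libraries were below both shScr libraries, on 19 and 4 reads, with a mean difference of -8.50 percentage points (12.2% ± 1.60 against 20.7% ± 2.01, SD, n = 2 each; two-sided exact permutation test, p = 0.333, the smallest possible). For shTet1 the difference was -0.403 points (p = 1 by the same exact test). In the 123 reads of this length over all libraries, the first base was T (U in the RNA) in 24.4%, against 27.0% T over all their bases, and the tenth base was A in 39.8%, against 33.9% A over all bases. Among the reads elsewhere, 0 pairs on opposite strands of a copy overlapped by 1 to 20 nt at their 5′ ends, including 0 pairs at 10 nt, which with so few reads per copy limits little.

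Reads elsewhere were found along the whole copy. In steps of 500 bp from the 5′ end they numbered 60, 83, 79, 66, 75, 54, 56, 63, 63, 50 and 11, the last step reaching beyond the end of many copies. Sense reads outnumbered antisense reads in each step but that of 3500 to 4000 bp, where 28 were sense and 35 antisense. In an intact element the first 1000 bp would hold the 5′ untranslated region, but whether these copies keep that region was not examined. The first 1000 bp of the copies held 21.3% and 16.9% of the reads elsewhere in shScr, 28.0% and 27.6% under shTet1, and 25.4% and 27.8% under shTet2. All 4 knockdown libraries were above both shScr libraries, on 7 and 8 reads under shTet1 and 36 and 10 under shTet2. In the first 500 bp alone this was not so, with 5.88% and 11.1% in shScr, 12% and 10.3% under shTet1, and 12% and 2.78% under shTet2. For the first 1000 bp, the mean was higher by 8.71 percentage points in shTet1 (27.8% ± 0.293 against 19.1% ± 3.08) and by 7.48 points in shTet2 (26.6% ± 1.72; SD, n = 2 each; two-sided exact permutation test, p = 0.333 in each comparison, the smallest possible), and both comparisons share the shScr libraries. Counting interval limits for these shares were wide, from 14.3% to 47.6% in replicate 1 of shTet1, which had 7 such reads. In L1Md_F2 and L1Md_F3 (reads selected as described for these classes below) replicate 2 of each knockdown lay between the shScr libraries. In L1Md_F2 these values were 20.95% (shTet1) and 21.6% (shTet2), against 28.2% and 20.1% in shScr. In L1Md_F3 they were 37.5% and 31.8%, against 37.8% and 29.0%. Replicate 1 of each knockdown lay above both shScr libraries in both classes. Over all L1Md_F reads, the sites included, the shares were 9.16% and 6.70% in shScr, 7.07% and 13.6% under shTet1, and 3.12% and 10.6% under shTet2. These differed from shScr by 2.38 points for shTet1 (two-sided exact permutation test, p = 0.667) and by -1.05 for shTet2 (p = 1), with libraries on both sides of shScr in each knockdown.

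**Figure D5:**
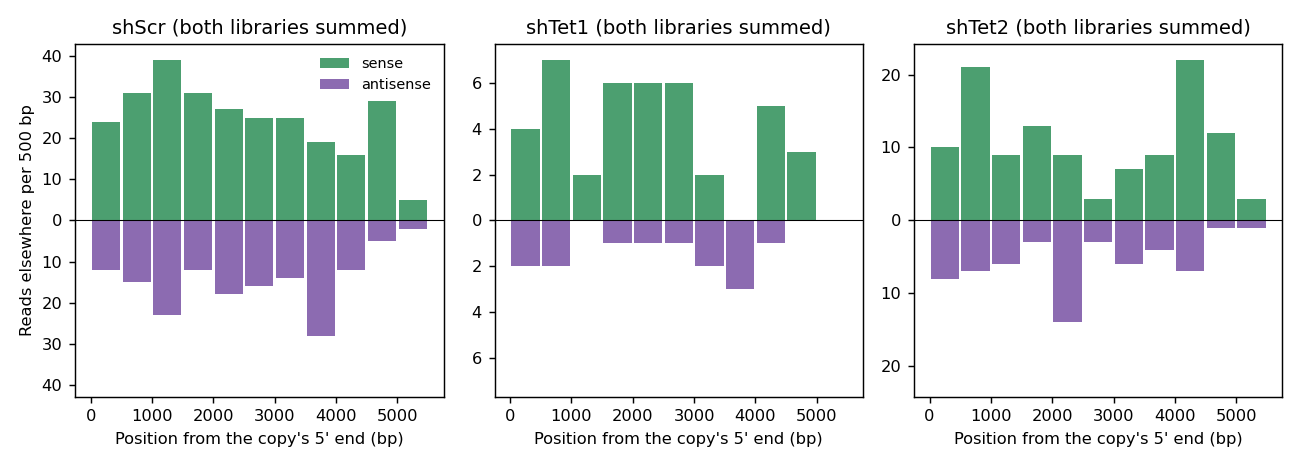
Reads elsewhere per 500 bp (vertical axis, sense above and antisense below 0, scaled to each condition) against the position from the 5′ end of the copy in bp (horizontal axis), both libraries of a condition summed. Reads of both strands lie along the copies, with sense reads in the majority in 10 of the 11 steps when the conditions are added up.

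The class was set beside those most like it in 3 measures, after leaving out all reads near the ribosomal word (1783 in L1Md_F, 825 in L1Md_F2 and 568 in L1Md_F3) and the 2 L1Md_F2 copies among the 3 L1 copies with the most reads (a further 50919 reads). This left 658 reads in L1Md_F, 9520 of 61264 in L1Md_F2 and 2466 of 3034 in L1Md_F3. The sense share was 67.8% ± 7.89 in L1Md_F, 62.5% ± 3.52 in L1Md_F2 and 63.2% ± 6.18 in L1Md_F3 (mean and SD over 6 libraries). Reads of 24 to 32 nt made up 17.8% ± 4.41 in L1Md_F, 17.8% ± 1.62 in L1Md_F2 and 20.9% ± 1.67 in L1Md_F3. The largest of the 6 differences computed was in the first 1000 bp, which held 24.5% ± 4.52 of the reads in L1Md_F and 36.7% ± 5.58 in L1Md_F3. L1Md_F was lower in 6 of 6 libraries, with a mean difference of -12.1 percentage points (exact paired permutation test over the libraries, two-sided p = 0.0312, Benjamini-Hochberg adjusted over the 6 tests p = 0.188), and none of the 6 passed at an adjusted 0.05. With only the reads at the 3 sites left out, the difference to L1Md_F3 was -6.09 points, lower in 5 of 6 libraries. The L1Md_F2 reads then included its 2 large copies, and the first 1000 bp held 4.35% ± 1.31 of them, while the sense share differed from L1Md_F2 by -7.90 points in place of 5.28. The lowest p adjusted over these 6 paired exact permutation tests was 0.0938.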

How the data were processed

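Per the deposited tables, each library file lists 1 read per row with its alignment and the L1 copy it fell in; these rows are the only unit, and no normalisation was applied by the authors. Per the labels and the study's methods, libraries (NEBNext, gel size selection) were trimmed with Trim Galore 0.3.3 to at least 15 nt and aligned to mm9 with Bowtie2 2.1.0, which places equally good hits at random. Total small RNA reads per library were not used here. Reads of class L1Md_F were tallied by library, copy, strand, length and distance of the read's middle from the copy's 5′ end (Python 3.11.15, pandas 2.3.3). A site was the most frequent place of each of the 3 copies with the most reads, with all overlapping reads. Words were searched on both strands of mm9, and genes came from GENCODE vM1. Libraries were compared with exact two-sided permutation tests (scipy 1.17.1), and classes that reached 10 reads in 2 or more libraries with limma 3.58.1 voom (R 4.3.3) with trimmed-mean factors. The scripts were tested on simulated data. Named copies and reads followed the rule given with them. The members, lists and rules were chosen with earlier results of these data known. Alternatives were reads of one place, strand and length counted once, 18 to 32 nt only, no 18-nt reads, the first 500 bp, the 3 L1 copies with the most reads left out, other filters and factors, the replicate block and each library left out; leaving out the reads at the 3 sites, also in the comparison with L1Md_F2 and L1Md_F3, was added after seeing the data. In chi-square tests over the reads of 16 to 25 L1 classes, replicates of each condition differed by more than independent draws of reads would. As reads can be PCR copies, these tests do not show a difference beyond the sampling of molecules.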

Additional observations from a re-analysis of the deposited data

How the results depend on the processing

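The differences between conditions rest on 2 libraries each, and no permutation test of 2 against 2 can pass 0.05. Of the 140 planned recalculations 113 were rated the same, 26 reversed and 1 moved. Read numbers and shares were rated by direction alone, and the class tests by the number of classes called. The L1Md_F fold change was rated by direction and side of the 0.05 threshold. Of 16 with the site reads left out 4 reversed, and as most site reads came from replicate 1 of shTet2, these are no separate result. The causes were not tested beyond what each setting leaves out. For shTet2, the log2 ratio of L1Md_F reads was -1.26 with each place counted once, -1.28 without 18-nt reads, -1.27 without the site reads and -0.652 as the mean within replicate numbers (replicate block), and -2.46 to 1.16 with single libraries left out. The difference in share of L1 reads was -0.186 (each place once), -0.0105 (no 18-nt reads) and -0.0133 points (no site reads) for shTet2, and -0.174 points with each place once for shTet1; leaving out libraries gave -0.138 to 1.26 and -0.156 to 0.449. Without the 3 L1 copies with the most reads the shTet2 difference in share was 1.86 points. The share in the first 500 bp, in place of 1000, differed by 0.587 points for shTet1 and -2.20 for shTet2. The first-1000-bp share differed for shTet2 by 7.54 (each place once), 5.03 (no 18-nt reads), 0.0154 (18 to 32 nt) and 7.48 points (no site reads), with -4.81 to 2.70 on leaving out libraries, and for shTet1 by -2.11 points among 18 to 32 nt, with -0.863 to 5.63. For shTet1 the 24 to 32 nt share differed by 0.128 points without 18-nt reads, with -3.56 to 1.56 on leaving out libraries, which gave -9.41 to 5.98 for the antisense share and -1.12 to 2.63 for the 21 to 23 nt share. The limma log2 fold change of L1Md_F was -0.38 (each place once), -0.22 (no 18-nt reads) and -0.21 (no site reads) for shTet2, with -0.35 to 1.57 on leaving out libraries; for shTet1 it was 0.15 (18 to 32 nt) and 0.056 (replicate block), with -0.65 to 0.60. The count of classes called by limma was 0 throughout except for 1 (L1VL1, 1.03, limma adjusted p = 0.0368) for shTet1 with each place counted once. Whether replicate numbers pair the libraries could not be settled. Over 21 classes, deviations of same-numbered libraries from their group means correlated by 0.0590 (shScr and shTet1), 0.586 (shScr and shTet2) and 0.435 (shTet1 and shTet2). These values are positive but differ widely. The block called 0 classes, as did the main model, which does not decide the question. Depth limits the reads outside the sites, with 25 to 36 in each of the shTet1 libraries and replicate 2 of shTet2.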
